A study of Mus musculus with 11 samples.

Results

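The genes described here are 36 that serve the uptake, storage and oxidation of fatty acids in muscle. They were chosen by symbol, as a named module, and not by their values. All 36 were found in the deposited table of raw read counts, which holds 22384 genes. They cover 8 roles: uptake and carriers (4 genes), activation and the carnitine shuttle (6), acyl-CoA dehydrogenases (4), later steps of beta-oxidation (5), unsaturated fatty acids (3), electron transfer (3), lipolysis and lipid droplets (6), and regulators of fuel choice (5).

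Muscle burns fatty acids that are cut from blood lipoproteins or released from its own lipid droplets. They are carried into the fiber, joined to coenzyme A, passed into mitochondria on carnitine, and shortened by beta-oxidation, whose electrons enter the respiratory chain through electron transfer flavoprotein. Slow and oxidative fibers depend on this fuel more than fast glycolytic fibers do, and nuclear receptors of the PPAR family with their coactivators set how strongly the enzymes are expressed. Muscle spindles are stretch receptors in which thin intrafusal fibers, with their sensory and motor endings, lie within a capsule.

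The study compared muscle spindles with neighboring extrafusal fibers, the fibers that do the work of contraction, by RNA-seq of polyadenylated RNA. Spindle bundles were dissected from the deep masseter, a jaw-closing muscle, of mice that carried *Piezo2* EGFP-IRES-Cre together with the *Rosa26* tdTomato reporter. Muscle samples were extrafusal fibers taken beside them. The 5 spindle libraries come from mice 9, 10, 12, 13 and 16, and the 6 muscle libraries from the same mice and mouse 11. All libraries share the same genotype, and mouse 11 gave muscle only. In these mice Cre driven by *Piezo2*, the stretch-gated channel of sensory endings, gave tdTomato in intrafusal fibers and capsule cells. The paper did not detect tdTomato in the sensory endings themselves. The reporter thus served to find spindles and does not mark 1 cell type. The authors left out 1 further spindle sample for its few uniquely aligned reads. The age and sex of the mice used for RNA-seq are not given in the sources used here, and nothing names the day or batch of a library.

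Levels are given in CPM, the reads of a gene relative to the size of its library after TMM scaling, which sets the libraries against each other by genes of middling ratio. A log2 fold change sets spindle over muscle, and a negative one means a lower level in spindle. Each test is edgeR's quasi-likelihood test over all 22384 genes with Benjamini-Hochberg adjusted p, and a gene passed at an adjusted p of at most 0.05. A gene was called at the study's own thresholds when it also averaged 5 or more normalized counts and changed by 1 or more on the log2 scale. Libraries that share a number are from 1 mouse, and a second fit, with the mouse as a block, is quoted wherever it changes whether a named gene passes.

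Total counts ran between 8354260 and 19668038 in spindle libraries and between 9690335 and 23430654 in muscle libraries. The share of counts from genes of the mitochondrial genome was 22.6% to 38.2% in spindle, highest in spindle 9, the shallowest library, and 16.7% to 24.8% in muscle. Spindle 16 and muscle 12 stood nearest to the other tissue on the first principal component, at 24.6 against 47.9 to 70.3 in the other spindle libraries, and at -23.1 against -48.8 to -41.4 in the other muscle libraries. Odorant receptor genes, which belong to the nose, summed to 17.2 CPM in spindle 16 and to between 144 and 228 CPM in the other spindle libraries, against 9.22 to 63.3 CPM in muscle libraries. All genes had a median log2 fold change of 0.29, and the 10787 genes that averaged 50 or more normalized counts had one of -0.16. Of the 12 genes of striated muscle fibers of any type, 11 fell (median -0.91) and *Tcap* did not pass. With the mouse as a block *Trdn* did not pass either (edgeR adjusted p = 0.0738). The summed level of the 12 genes was 31370 to 51910 CPM in spindle and 71290 to 111700 CPM in muscle. All 5 slow fiber genes rose (median 7.84), and of 6 fast fiber genes 5 fell and *Myh4* rose. The slow fiber genes summed to 706 to 1203 CPM in spindle and 38.5 to 63.4 CPM in muscle. The fast fiber genes summed to more in both tissues, 22500 to 30510 CPM in spindle and 53850 to 62300 CPM in muscle. The 5 myelinating Schwann, 5 macrophage and 5 perineurial genes all rose, with medians of 2.16, 1.81 and 4.61, and none of 4 erythroid genes passed. In bulk RNA, fewer cells of a type and less RNA per cell cannot be told apart, and so the part of these cell mixtures in the results below was not tested.

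Across the 36 genes, differences were small and mostly toward lower levels in spindle. None rose and 8 fell (22.2%), namely *Ces1d*, *Cpt1b*, *Plin4*, *Ppard*, *Acadvl*, *Crat*, *Acsl1* and *Ppargc1a*, and 28 did not pass. Among all genes tested, 23.6% rose and 15.0% fell. Low counts weigh on those shares, and among genes that averaged 50 or more normalized counts, which hold 35 of the 36, 16.5% rose and 29.9% fell, against 7 of these 35 genes that fell and none that rose. The share of the fatty acid genes that fell was thus above that of all genes and below that of genes that averaged 50 or more. That limit is a floor, and genes were not matched to the 36 in depth. At an unadjusted p under 0.05, 1 gene was higher in spindle and 16 were lower, but the share of all genes at that threshold was not counted. DESeq2 and limma-voom also passed none higher at the adjusted p.

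The median log2 fold change of the 36 genes was -0.29, with 29 below 0 and 7 above. Of the 36, 32 lay above the median of the muscle fiber genes (-0.91) and 33 below the median of all genes (0.29). Genes that averaged 50 or more normalized counts, which hold 35 of the 36, had a lower median, of -0.16. The summed level of the 36 genes was 4395, 4188, 5063, 6424 and 5385 CPM in spindle libraries 9, 10, 12, 13 and 16, against a lowest of 5952, a median of 6264 and a highest of 7470 CPM in muscle libraries. Spindle 13 alone reached the range of muscle. Only *Ces1d* and *Cpt1b* were called lower (2 of 36), and none was called higher, where 1.80% of all genes were called lower and 11.3% higher. *Ces1d* and *Ppard* were the 2 genes of which every spindle library lay below every muscle library, as did 8.65% of all genes, and none had every spindle library above, as did 9.15% of all genes.

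Scaling moves these counts, and the shares of all genes that passed were not counted under the settings that follow. With library totals in place of TMM factors the median of all genes shifted by 0.31, the median of the 36 genes became 0.01, 13 genes turned from negative to positive, and *Ces1d* alone still passed as lower while 2 genes passed as higher. With the genes of the mitochondrial genome left out, 10 of the 36 fell, *Cpt2* and *Hadhb* among them, and none rose. Without spindle 10, 12 and 13, which held the most odorant receptor reads in earlier results, *Ces1d*, *Plin4* and *Ppard* passed and the other 5 did not. Without spindle 16 and muscle 12, 13 genes fell, 1 rose and the median was -0.35.

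**Figure D1:**
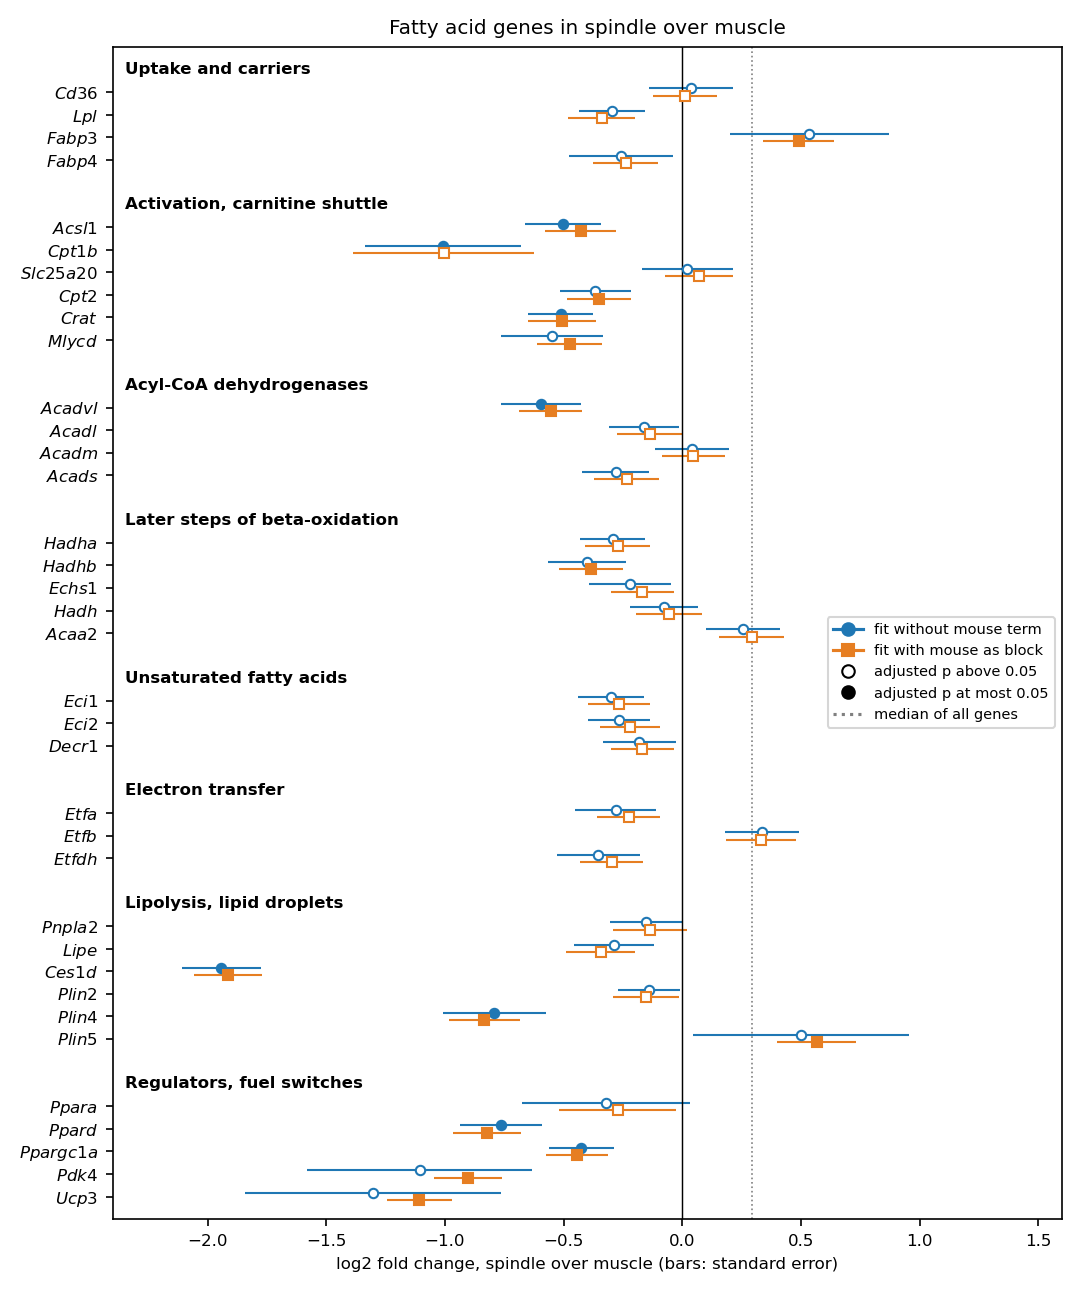
Log2 fold change, spindle over muscle, of the 36 fatty acid genes by role, in the fit without a mouse term (circles) and in the fit with the mouse as a block (squares), with bars of 1 standard error. Filled symbols passed the adjusted p of 0.05, the dotted line is the median of all genes (0.29), and most symbols lie between -0.6 and 0, with *Ces1d* farthest to the left.

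Fitting the mouse as a block kept 7 of the 8 genes and added others. With the block 12 genes fell and 2 rose, where 14.7% of all genes fell and 18.4% rose. Shares among genes that averaged 50 or more normalized counts were not counted with the block. Without it, 29.9% of those genes fell and 16.5% rose. *Cpt1b* no longer passed, at an adjusted p of 0.0503 from edgeR. *Cpt2*, *Mlycd*, *Hadhb*, *Pdk4* and *Ucp3* passed as lower with the block and not without it, and *Fabp3* and *Plin5* likewise passed as higher. Within mice, 14 of the 36 genes were lower in spindle in 5 of 5 mice, as were 17.5% of all genes and 33.7% of those that averaged 50 or more normalized counts. *Plin5* alone was higher in 5 of 5, as were 16.8% of all genes and 17.0% of the deeper ones.

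Genes of uptake and intracellular carriage did not pass without the mouse term. *Lpl*, the lipase that frees fatty acids from lipoproteins at the capillary wall, averaged 756 ± 142 CPM in spindle and 928 ± 79.4 CPM in muscle (SD, n = 5 and 6), with a log2 fold change of -0.30 (standard error 0.14, edgeR adjusted p = 0.092). *Cd36*, a membrane transporter of long-chain fatty acids, averaged 253 ± 68.5 CPM in spindle and 246 ± 50.9 CPM in muscle. *Fabp4*, the fatty acid binding protein of adipocytes and capillary endothelium, averaged 206 ± 65.1 CPM in spindle and 246 ± 64.0 CPM in muscle (log2 fold change -0.26, standard error 0.22). For both genes the difference was smaller than the spread between libraries.

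Endothelial and adipocyte markers were measured beside these genes. Of 9 endothelial genes only *Cldn5*, a tight junction gene, rose (0.64), and the list summed to 395 to 745 CPM in spindle and 470 to 768 CPM in muscle. *Gpihbp1*, which holds the lipase on the capillary wall, had -0.20 (standard error 0.19) and did not pass. Of 8 adipocyte markers 5 were in the table, and *Car3*, which slow muscle fibers express as well, was the 1 that rose, with 411 CPM in spindle and 76.1 CPM in muscle (2.43). The other 4 summed to between 0 and 2.14 CPM in spindle and between 0 and 1.42 CPM in muscle, and *Adipoq*, the adipocyte hormone adiponectin, stayed at or below 0.174 CPM in spindle and 0.515 CPM in muscle, with 0 in at least 1 library of each tissue. The part of *Car3*-expressing cells in these results was not tested.

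*Fabp3*, the fatty acid binding protein of heart and oxidative muscle, was the carrier with the largest fold change. It had 81.6, 44.6, 83.6, 194 and 90.2 CPM in spindle libraries 9, 10, 12, 13 and 16, against a lowest of 45.2, a median of 70.6 and a highest of 92.5 CPM in muscle libraries. The groups overlapped, spindle 13 stood above all other libraries, and both tissues of mouse 10 were low. The log2 fold change was 0.53 (standard error 0.33, edgeR adjusted p = 0.222), and with the mouse as a block it was 0.49 (standard error 0.15, edgeR adjusted p = 0.0124), with higher levels in spindle in 4 of 5 mice. Without mouse 13 the blocked value was 0.37 and its adjusted p 0.0715. Its exons overlap other genes over 19.6% of their length and a processed copy, *Fabp3-ps1*, repeats part of its sequence, so its count is uncertain.

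Activation and the carnitine shuttle held 3 of the 8 genes that fell. *Acsl1*, the main acyl-CoA synthetase of muscle, had 195, 195, 240.1, 269 and 306 CPM in spindle libraries 9, 10, 12, 13 and 16, against a lowest of 231, a median of 337 and a highest of 426 CPM in muscle libraries. Muscle 12 held the lowest muscle value and lay among the spindle libraries, and all other muscle libraries lay above all spindle libraries. *Acsl1* fell by 0.50 (log2, standard error 0.16, edgeR adjusted p = 0.02), and without spindle 10 it did not pass (-0.44, edgeR adjusted p = 0.0543).

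*Crat*, carnitine acetyltransferase, which moves short acyl groups onto carnitine, showed a like pattern. It had 320.3, 401, 396, 430.3 and 471 CPM in spindle libraries 9, 10, 12, 13 and 16, against a lowest of 428, a median of 600.1 and a highest of 630.4 CPM in muscle libraries. Again muscle 12 was the only muscle library within the range of spindle. *Crat* fell by 0.51 (log2, standard error 0.14, edgeR adjusted p = 0.00712), with lower levels in spindle in 5 of 5 mice.

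*Cpt1b*, the muscle form of carnitine palmitoyltransferase 1, which makes the acylcarnitine that enters mitochondria, had few reads. It had 0.333, 2.23, 2.54, 1.77 and 2.57 CPM in spindle libraries 9, 10, 12, 13 and 16, the first from 3 reads, against a lowest of 2.33, a median of 4.31 and a highest of 5.22 CPM in muscle libraries. Its log2 fold change was -1.01 (standard error 0.33, edgeR adjusted p = 0.0218), the groups overlapped, and without muscle 9 it did not pass (-0.93, edgeR adjusted p = 0.053). Its exons overlap those of *Gm44502* on the same strand over 81.4% of their length, so that its count is uncertain in both tissues.

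The other shuttle genes differed less. *Cpt2*, which returns the acyl group to coenzyme A inside mitochondria, had 49.9, 37.9, 42.5, 64.7 and 62.5 CPM in spindle libraries 9, 10, 12, 13 and 16, against a lowest of 54.0, a median of 67.1 and a highest of 78.2 CPM in muscle libraries. Its log2 fold change was -0.37 (standard error 0.15, edgeR adjusted p = 0.0573, or 0.0423 with the mouse as a block). *Mlycd*, malonyl-CoA decarboxylase, which removes the inhibitor of carnitine palmitoyltransferase 1, had 41.2, 41.7, 67.9, 90.0 and 68.2 CPM in spindle, against a lowest of 63.9, a median of 82.2 and a highest of 121 CPM in muscle. The groups overlapped for both genes. The log2 fold change of *Mlycd* was -0.55 (standard error 0.22, edgeR adjusted p = 0.0535, or 0.00717 with the block, and 0.0497 from limma-voom without it), with lower levels in spindle in 5 of 5 mice. *Slc25a20*, the carnitine-acylcarnitine exchanger of the inner membrane, averaged 37.4 ± 13.2 CPM in spindle and 36.8 ± 7.16 CPM in muscle, a difference well within the spread.

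**Figure D2:**
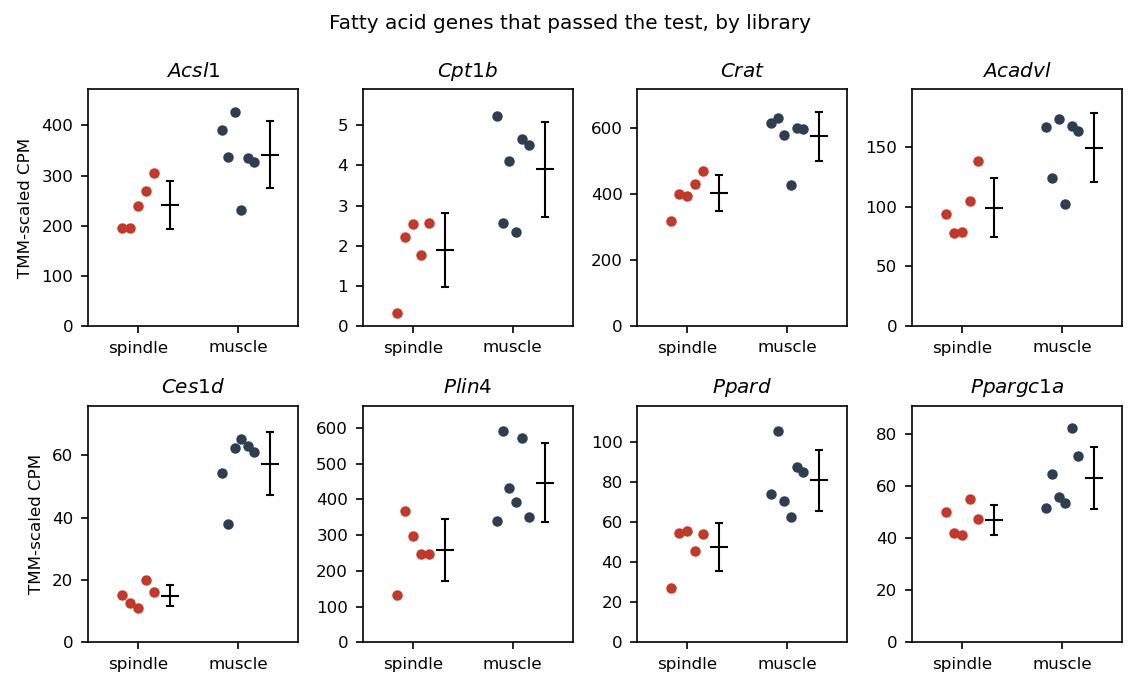
TMM-scaled CPM of the 8 fatty acid genes that passed the test, 1 point a library, with 5 spindle libraries at the left of each panel, 6 muscle libraries at the right, and the mean with its SD beside each group. All 5 spindle points lie below all 6 muscle points for *Ces1d* and *Ppard*, and the groups overlap for the other 6 genes.

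The acyl-CoA dehydrogenases take the first step of beta-oxidation, each on its own range of chain lengths, and 1 of the 4 fell. *Acadvl*, for very long chains, had 94.1, 78.0, 79.0, 104 and 138 CPM in spindle libraries 9, 10, 12, 13 and 16, against a lowest of 102, a median of 165 and a highest of 173 CPM in muscle libraries. Muscle 12 and muscle 10, the lowest of muscle, lay within the range of spindle. *Acadvl* fell by 0.60 (log2, standard error 0.17, edgeR adjusted p = 0.00996), with lower levels in spindle in 5 of 5 mice. *Acadvl* shares 42.9% of its exonic length with *Dvl2* on the opposite strand and is uncertain for that reason.

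The dehydrogenases for shorter chains lay closer to 0 in log2 fold change. *Acadl*, for long chains, averaged 258 ± 53.0 CPM in spindle and 288 ± 39.3 CPM in muscle (log2 fold change -0.16, standard error 0.15). *Acadm*, for medium chains, averaged 217 ± 50.4 CPM in spindle and 210.3 ± 32.04 CPM in muscle (0.04, standard error 0.16). *Acads*, for short chains, averaged 47.6 ± 6.69 CPM in spindle and 57.9 ± 10.0 CPM in muscle (-0.28, standard error 0.14, edgeR adjusted p = 0.115). None of these 3 passed, and the differences between the 4 dehydrogenases were not tested.

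The later steps of beta-oxidation add water, oxidize again and split off acetyl-CoA, and none of these 5 genes passed without the mouse term. *Hadha* and *Hadhb* encode the subunits of the mitochondrial trifunctional protein, which carries out these steps on long chains. *Hadhb* had 102, 78.1, 80.5, 139 and 134 CPM in spindle libraries 9, 10, 12, 13 and 16, against a lowest of 105, a median of 142 and a highest of 165 CPM in muscle libraries. The groups overlapped, and within each of the 5 mice the spindle library was the lower. The log2 fold change of *Hadhb* was -0.40 (standard error 0.17, edgeR adjusted p = 0.0593, or 0.0249 with the mouse as a block), though pseudogene copies, such as *Gm13910* and *Gm9108*, repeat much of its sequence and make its count uncertain. *Hadha* averaged 305 ± 48.6 CPM in spindle and 374 ± 46.8 CPM in muscle (log2 fold change -0.29, standard error 0.14, edgeR adjusted p = 0.0931).

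*Hadha* and *Hadhb* lie head to head at chr5:30118304-30155162 on the minus strand and chr5:30155248-30184593 on the plus strand. The bases between them are shown because both subunits are read outward from this stretch and had like fold changes. It is given from RefSeq GRCm38.p6, on the plus strand, at chr5:30155163-30155247, and held no match to the motifs searched below.

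Between Hadha and Hadhb: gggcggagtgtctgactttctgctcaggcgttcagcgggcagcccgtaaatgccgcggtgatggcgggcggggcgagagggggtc

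The remaining genes of these steps did not pass. *Echs1*, short-chain enoyl-CoA hydratase, averaged 109 ± 28.4 CPM in spindle and 126 ± 24.1 CPM in muscle (log2 fold change -0.22, standard error 0.17). *Hadh*, the dehydrogenase for shorter chains, averaged 179 ± 37.5 CPM in spindle and 188 ± 23.5 CPM in muscle (-0.08, standard error 0.14). *Acaa2*, the thiolase that releases acetyl-CoA, averaged 142 ± 35.2 CPM in spindle and 119 ± 17.7 CPM in muscle (0.26, standard error 0.16, edgeR adjusted p = 0.196), with higher levels in spindle in 4 of 5 mice. *Hadh* lay on either side of 0 depending on the scaling, and *Acaa2* passed as higher only with library totals alone.

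Enzymes of unsaturated fatty acids and electron transfer did not pass in either fit. *Eci1* and *Eci2*, enoyl-CoA isomerases that shift double bonds, had log2 fold changes of -0.30 and -0.27, and *Decr1*, dienoyl-CoA reductase, one of -0.18, with standard errors of 0.14, 0.13 and 0.15. *Eci1* and *Eci2* were lower in spindle in 5 of 5 mice. *Etfa* and *Etfb* encode the subunits of electron transfer flavoprotein, and *Etfdh* the enzyme that hands its electrons to the respiratory chain. *Etfa* averaged 130.4 ± 32.6 CPM in spindle and 158 ± 31.9 CPM in muscle, and *Etfdh* 109 ± 30.0 CPM in spindle and 140 ± 28.5 CPM in muscle (log2 fold changes -0.28 and -0.35). *Etfb* averaged 28.9 ± 7.31 CPM in spindle and 22.8 ± 2.97 CPM in muscle (0.34, standard error 0.15, edgeR adjusted p = 0.0879), and 58.2% of its exonic length is shared with another gene, *Gm45233*. The subunits of 1 flavoprotein thus had fold changes of opposite sign, of which neither passed.

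Lipolysis and lipid droplets held the strongest difference of the 36 genes. *Ces1d*, a carboxylesterase that hydrolyzes triacylglycerol in liver and fat, had 15.1, 12.5, 11.1, 20.0 and 16.1 CPM in spindle libraries 9, 10, 12, 13 and 16, against a lowest of 37.9, a median of 61.6 and a highest of 65.1 CPM in muscle libraries. Every spindle library lay below every muscle library. *Ces1d* fell by 1.94 (log2, standard error 0.17, edgeR adjusted p = 4.03e-08), and within mice the log2 ratio ranged between -2.55 (mouse 12) and -1.60 (mouse 10). *Ces1d* lies at chr8:93166068-93197838 on the minus strand and shares no exonic base with another gene in the annotation. It was the only one of the 36 to pass under every alternative tried, with values between -2.24 and -1.65.

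The perilipins, which coat lipid droplets, did not move together. *Plin4* had 132, 367, 297, 247 and 248 CPM in spindle libraries 9, 10, 12, 13 and 16, against a lowest of 340.4, a median of 413 and a highest of 591 CPM in muscle libraries. Spindle 10 alone reached the range of muscle. *Plin4* fell by 0.79 (log2, standard error 0.22, edgeR adjusted p = 0.00979), with lower levels in spindle in 5 of 5 mice.

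*Plin5*, the perilipin that ties droplets to mitochondria in oxidative tissue, had 8.11, 6.50, 16.1, 32.1 and 15.9 CPM in spindle libraries 9, 10, 12, 13 and 16, against a lowest of 4.25, a median of 11.3 and a highest of 17.5 CPM in muscle libraries. The groups overlapped widely, and both tissues of mouse 10 were low and both of mouse 13 high. Without the mouse term the log2 fold change was 0.50 (standard error 0.46, edgeR adjusted p = 0.402), and with it 0.57 (standard error 0.17, edgeR adjusted p = 0.00755). In the blocked fit, leaving out mouse 13 gave 0.50 and an adjusted p of 0.0662. *Plin4* and *Plin5* are neighbors on the minus strand, at chr17:56100591-56109803 and chr17:56111601-56117596, and the fold changes of these adjacent genes had opposite signs in each of the 5 mice. *Plin2*, the perilipin found in most cells, averaged 28.4 ± 6.0 CPM in spindle and 31.4 ± 1.92 CPM in muscle (-0.14, standard error 0.13).

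The main lipases of stored fat did not pass. *Pnpla2*, adipose triglyceride lipase, averaged 303 ± 63.4 CPM in spindle and 336 ± 48.7 CPM in muscle (log2 fold change -0.15, standard error 0.15), and *Lipe*, hormone-sensitive lipase, 28.0 ± 8.86 CPM in spindle and 34.4 ± 3.43 CPM in muscle (-0.29, standard error 0.17). *Lipe* shares 15.6% of its exonic length with other genes.

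All 5 regulators of fuel choice had negative fold changes, with a median of -0.76, though *Ppara* turned to 0.016 without muscle 13, and 2 of them fell. *Ppard*, the PPAR receptor most tied to oxidative muscle, had 27.3, 54.6, 55.6, 45.7 and 54.1 CPM in spindle libraries 9, 10, 12, 13 and 16, against a lowest of 62.4, a median of 79.6 and a highest of 106 CPM in muscle libraries. The libraries of the tissues did not overlap, and muscle 12 was the nearest to spindle. For *Ppard*, at chr17:28232700-28301474 on the plus strand, the log2 fold change was -0.76 (standard error 0.17, edgeR adjusted p = 0.00206).

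*Ppargc1a*, the coactivator PGC-1alpha, which drives mitochondrial genes, had 50.1, 41.8, 41.2, 55.0 and 47.4 CPM in spindle libraries 9, 10, 12, 13 and 16, against a lowest of 51.7, a median of 60.2 and a highest of 82.1 CPM in muscle libraries. Only spindle 13 reached the range of muscle. *Ppargc1a* fell by 0.43 (log2, standard error 0.14, edgeR adjusted p = 0.0214), and it did not pass without spindle 10 (-0.39, edgeR adjusted p = 0.0548) or without spindle 12 (-0.38, edgeR adjusted p = 0.0601), or with genes of low counts filtered out (-0.34, edgeR adjusted p = 0.0521). *Ppara*, the PPAR receptor best known from liver, was low, at 3.93 ± 1.37 CPM in spindle and 4.94 ± 2.96 CPM in muscle (-0.32, standard error 0.36).

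*Pdk4* and *Ucp3* varied widely between mice, and alike in both tissues. *Pdk4*, the kinase that shuts pyruvate out of mitochondria when fat is burned, had 126, 246, 283, 409.9 and 131 CPM in spindle libraries 9, 10, 12, 13 and 16, and 284, 508, 563, 827 and 159 CPM in muscle libraries of the same mice, with 747 CPM in muscle 11. *Ucp3*, the uncoupling protein of skeletal muscle, had 30.7, 36.7, 59.4, 89.2 and 19.9 CPM in spindle libraries 9, 10, 12, 13 and 16, and 81.5, 78.7, 107, 233 and 34.8 CPM in muscle libraries of the same mice, with 163 CPM in muscle 11. Both genes were highest in mouse 13 in both tissues, and *Ucp3* was lowest in mouse 16 in both. In each of the 5 mice the spindle library was the lower for both genes.

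With the mouse as a block both genes passed. The log2 fold change of *Pdk4* was -1.11 (standard error 0.47, edgeR adjusted p = 0.0876) without the mouse term and -0.90 (standard error 0.14, edgeR adjusted p = 4.34e-06) with it. That of *Ucp3* was -1.30 (standard error 0.54, edgeR adjusted p = 0.0809) without the mouse term and -1.11 (standard error 0.14, edgeR adjusted p = 2.38e-08) with it. Within mice the log2 ratio of *Pdk4* was between -1.18 and -0.99 in mice 9, 10, 12 and 13 and -0.28 in mouse 16, and that of *Ucp3* between -1.41 and -0.80. With the block and without any 1 of the 5 mice, both genes still passed, at -1.06 to -0.84 for *Pdk4* and -1.18 to -1.01 for *Ucp3*. With no mouse term, *Pdk4* passed narrowly with DESeq2 (adjusted p = 0.0493) and limma-voom (adjusted p = 0.0497), and *Ucp3* with limma-voom (adjusted p = 0.0321) but not with DESeq2 (adjusted p = 0.0521).

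**Figure D3:**
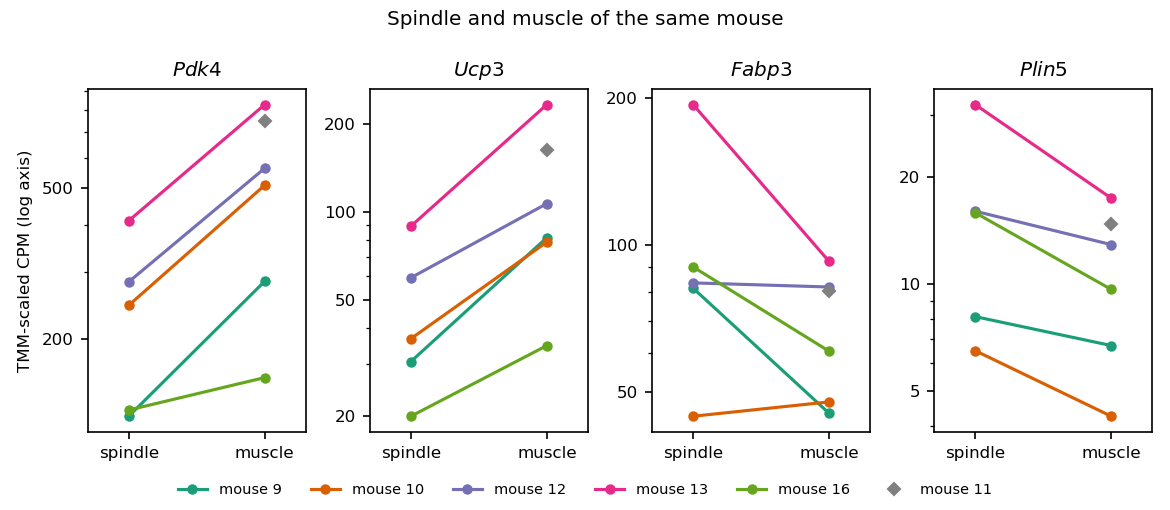
TMM-scaled CPM (log axis) of *Pdk4*, *Ucp3*, *Fabp3* and *Plin5* in spindle (left) and muscle (right), with a line joining the libraries of each of 5 mice and a gray diamond for mouse 11, which has muscle only. Lines climb toward muscle in all 5 mice for *Pdk4* and *Ucp3*, fall toward muscle in all 5 for *Plin5*, and fall in 4 of 5 for *Fabp3*.

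The bases just before *Pdk4* (chr6:5496310-5496528, minus strand) and before *Ucp3* (chr7:100472741-100472989, plus strand) are shown because these genes varied alike between mice and are known targets of PPAR receptors. They are from RefSeq GRCm38.p6, end directly before the annotated gene, and have in capitals each AGGTCA, the half-site that PPAR and other nuclear receptors bind.

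Pdk4: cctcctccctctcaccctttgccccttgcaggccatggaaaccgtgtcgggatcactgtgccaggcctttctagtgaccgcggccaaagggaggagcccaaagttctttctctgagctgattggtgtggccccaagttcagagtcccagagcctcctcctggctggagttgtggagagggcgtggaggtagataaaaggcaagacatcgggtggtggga

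Ucp3: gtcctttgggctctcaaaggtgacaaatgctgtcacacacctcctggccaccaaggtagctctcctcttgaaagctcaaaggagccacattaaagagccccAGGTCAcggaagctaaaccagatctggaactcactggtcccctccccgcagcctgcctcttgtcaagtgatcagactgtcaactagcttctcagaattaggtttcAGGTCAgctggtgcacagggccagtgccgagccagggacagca

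The *Ucp3* stretch held 2 half-sites and the *Pdk4* stretch none. In promoters of 300 bases (250 before and 50 after the start), 29 of the 36 genes had an entry, with 32 promoters among them. The half-site AGGTCA, searched on both strands and chosen after an earlier search, was in 8 of these 32 promoters (25%, of 7 genes: *Acadm*, *Acadvl*, *Cd36*, *Echs1*, *Plin2*, *Plin5* and *Ucp3*) and in 16.3% of all 32851 promoters. The pair of such half-sites spaced by 1 base and the element TNAAGGTCA of estrogen-related receptors, which contains the half-site, were in none of the 32 promoters, and in 0.0396% and 1.28% of all promoters. A match is a run of letters and not a shown binding site.

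Other genes of fatty acid metabolism, from a list of 69 written by role, moved in both directions. Of the 68 in the table, 15 rose and 25 fell, where 23.6% of all genes rose and 15.0% fell. Among genes that averaged 50 or more normalized counts, 16.5% rose and 29.9% fell. The median log2 fold change of the 68 was -0.19, beside 0.29 for all genes and -0.16 for those deeper genes. *Bdh1*, which interconverts ketone bodies and was named after its values were seen, rose by 4.89 (edgeR adjusted p = 3.21e-08) from few reads, with a mean normalized count of 41.2. *Oxct1*, which puts ketone bodies to use and was also named after its values were seen, fell by 0.41 (edgeR adjusted p = 0.0499).

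*G0s2*, an inhibitor of adipose triglyceride lipase, rose, with every spindle library above every muscle library. It averaged 14.1 ± 7.88 CPM in spindle and 3.79 ± 1.41 CPM in muscle (log2 fold change 1.85, standard error 0.37, edgeR adjusted p = 0.00189). Of triacylglycerol synthesis, *Gpam*, which takes the first step, had a log2 fold change of -1.64 with standard error 0.31, and *Lpin1*, a phosphatidate phosphatase, -0.90 (0.19), and both passed. *Agpat2*, a later enzyme of the same path named after its values were seen, rose by 0.50 (standard error 0.18, edgeR adjusted p = 0.0395). Also named after values were seen, *Gpat4* fell by 0.51 (edgeR adjusted p = 0.00241), and *Dgat1* (0.095) and *Dgat2* (0.165) did not pass. *Rxra*, the partner of PPAR receptors, had -0.87 (0.17), and *Ehhadh*, of peroxisomal beta-oxidation, -0.88 (0.23), and both passed. With library totals alone *Ehhadh* did not pass (-0.565, edgeR adjusted p = 0.0671).

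**Figure D4:**
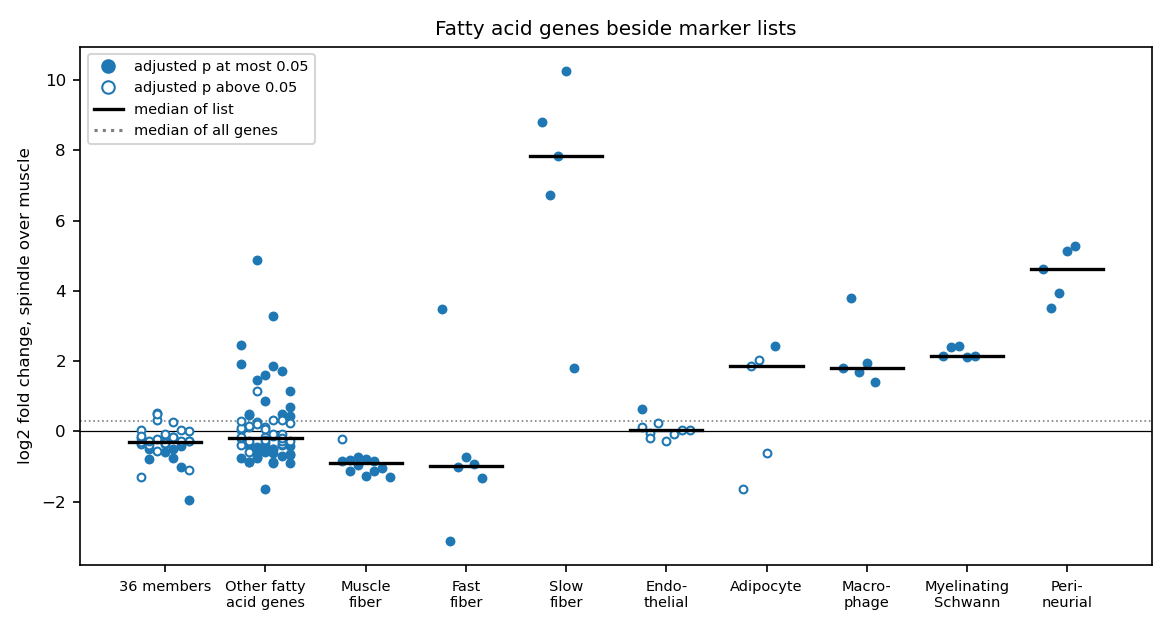
Log2 fold change, spindle over muscle, of each gene of the 36 and of the other fatty acid genes, muscle fiber types and cell type markers measured in the table, with a bar at the median of each list and filled points for genes that passed. The median of the 36 genes (-0.29) lies between the medians of the muscle fiber genes (-0.91) and the endothelial genes (0.03). The adipocyte column holds 5 genes, of which only *Car3* passed.

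Some relatives of the 36 genes went the other way, and others the same way. Beside *Cpt1b*, *Cpt1c*, the form of neurons, rose by 1.46 (standard error 0.28, edgeR adjusted p = 6.18e-04) and *Cpt1a*, the form of liver and most other tissues, by 0.45 (0.15, edgeR adjusted p = 0.0239). *Cpt1a* averaged 17.7 CPM in spindle and 13.0 CPM in muscle, and *Cpt1c* 7.24 CPM in spindle and 2.70 CPM in muscle. The count of *Cpt1b* is uncertain, as 81.4% of its exonic length overlaps *Gm44502*, so its level cannot be ranked against these. Beside *Pdk4*, *Pdk3* rose by 1.71 (0.23, edgeR adjusted p = 1.74e-05), *Pdk2*, a pyruvate dehydrogenase kinase of most tissues, fell to 404 CPM in spindle, against 736 CPM in muscle (log2 fold change -0.86), and *Pdk1* had 0.06. Beside *Ucp3*, *Ucp2*, the uncoupling protein of many tissues and of immune cells, rose by 1.16 (0.31, edgeR adjusted p = 0.0128), with 63.2 CPM in spindle and 28.5 CPM in muscle.

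Acyl-CoA synthetases and perilipins split as well. *Acsl4* and *Acsl6* fell together with *Acsl1*, at -0.90 and -0.65, while *Acsl3* rose by 0.85 and *Acsl5* did not pass (0.32). *Plin3* rose by 0.44. *Plin1*, the perilipin of fat cells, had few reads, at 0.56 CPM in spindle and 0.167 CPM in muscle. Its log2 fold change was 1.87 (standard error 0.93) and did not pass. *Ppargc1b*, the relative of *Ppargc1a*, fell by 0.63, and *Acad9*, *Acad11* and *Acadsb*, relatives of *Acadvl*, by 0.75, 0.49 and 0.46. *Fabp7*, a fatty acid binding protein of brain and glia, rose by 3.28 (edgeR adjusted p = 0.00758) from few reads, with a mean normalized count of 8.05, of which spindle 9 held the most (3.44 CPM, against 0.347 to 0.401 CPM in the other spindle libraries and 0 to 0.267 CPM in muscle). Of these relatives, *Cpt1a*, *Acsl3*, *Plin3*, *Pdk1*, *Pdk2*, *Plin1*, *Acsl5*, *Acsl6*, *Ppargc1b*, *Acad9*, *Acad11*, *Acadsb* and *Fabp7* were named by family after values had been seen. When the median of all genes was set to 0, *Pdk1* turned negative (-0.24), and *Cpt1a* (0.16), *Acsl3* (0.56) and *Plin3* (0.14) no longer passed. With library totals alone *Acsl6* (-0.35), *Ppargc1b* (-0.32), *Acad11* (-0.19) and *Acadsb* (-0.16) no longer passed, and with RLE size factors *Acadsb* (-0.38) did not. The difference in fold change between relatives was not tested. Macrophage, Schwann and perineurial markers rose in the same libraries, and their part in these values was not tested.

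**Figure D5:**
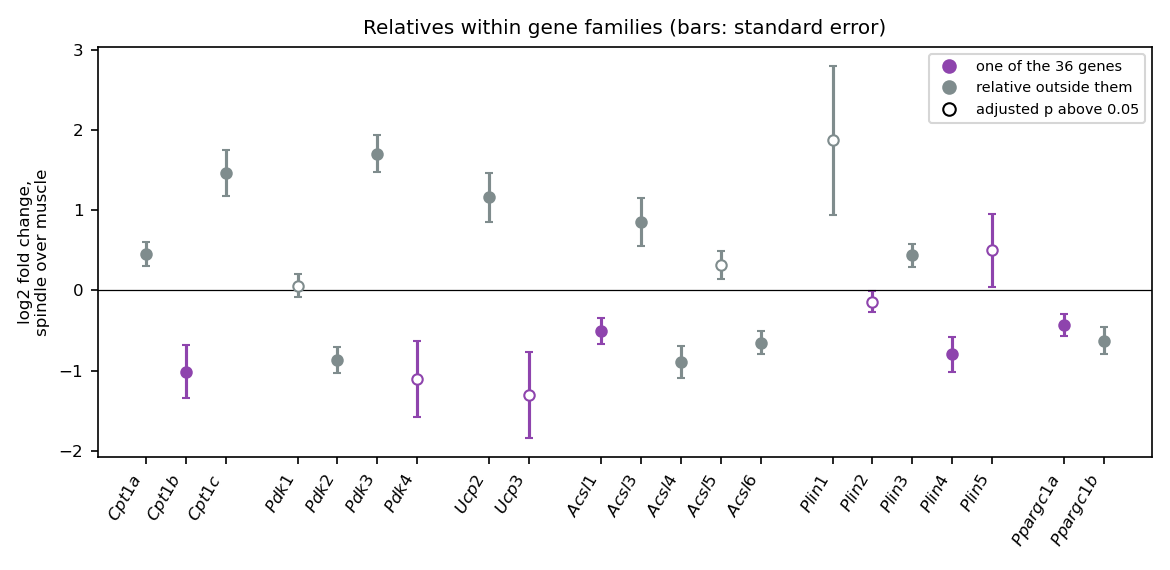
Log2 fold change, spindle over muscle, with bars of 1 standard error, for relatives in 6 gene families. Purple marks genes of the 36, gray their relatives, and open symbols an adjusted p above 0.05. *Cpt1c*, *Pdk3*, *Ucp2* and *Acsl3* lie above 0, opposite in sign to *Cpt1b*, *Pdk4*, *Ucp3* and *Acsl1*.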

How the data were processed

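RNA of 5 spindle and 6 muscle samples was compared as read counts per gene. The deposited values used are raw counts that the authors made from single-end reads of 84 bases, mapped to GRCm38 with STAR 2.4.2a and counted over GENCODE genes, with samples not pooled. Other columns hold the authors' normalized values per sample (22 columns) and their comparison of the tissues (6 columns, made with DESeq2 1.16.1), and neither was used. Every gene in the table has at least 6 reads in total.

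Counts were scaled by TMM and tested with edgeR 4.0.16 in R 4.3.3, with robust dispersions, no filter and no mouse term, since the study's methods name none. Standard errors are the absolute log2 fold change over the square root of F. All 36 members averaged at least 5 normalized counts. In simulated counts without a mouse effect, the fit recovered 89% of genes changed by 1 on the log2 scale and 100% of those changed by 2. Smaller changes, which most of the 36 genes had, were not simulated. No library copied another (smallest chi-square per gene 19.6, where sampling noise gives about 1).

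The mouse number pairs samples by design, and deviations from group means over the 12557 genes that averaged 20 or more counts correlated between the tissues of a mouse at 0.069 (mouse 9), 0.35 (10), 0.16 (12), 0.27 (13) and 0.28 (16). DESeq2 1.42.0 and limma-voom (limma 3.58.1), other scalings, a filter on low counts, the block and left-out libraries were alternatives.

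Named genes were the 36 members, with values by library for those that passed with an absolute log2 fold change of at least 0.58 or did not overlap, widened here to all that passed in either fit, and the 10 other fatty acid genes with the largest fold change among those that passed and averaged 50 or more normalized counts, of which 1 is not reported here. Lists of muscle fiber, fast and slow fiber, endothelial, adipocyte, Schwann, macrophage, perineurial and erythroid markers were used as descriptions. Members and lists were chosen with earlier results of these data known. Positions and overlaps are from GENCODE for the same build, in a release earlier than the authors', and sequences from RefSeq GRCm38.p6. Protein sequences were not used here. Python 3.11.15 with matplotlib 3.10.9 served for the plots.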

Additional observations from a re-analysis of the deposited data

Results flagged for a closer look

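Of 72 sets of libraries (36 genes in 2 tissues), 4 held a library that stood farther from its group than Dixon's limit at 95% allows, a limit that chance passes in about 1 of 20 groups. Muscle 12 was low for *Crat* (428.1 CPM, against 579.9 to 630.4 CPM in the other muscle libraries), for *Acads* (38.77 CPM, against 57.97 to 67.51) and for *Hadha* (285.8 CPM, against 366.1 to 407.7). Without muscle 12, *Acads* and *Hadha* passed as lower in spindle, at -0.38 (edgeR adjusted p = 0.0179) and -0.37 (edgeR adjusted p = 0.0312). Spindle 10 was low for *Eci1* (65.2 CPM, against 91.89 to 99.63 CPM in the other spindle libraries).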

How the results depend on the processing

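Of the 8 genes that fell, *Ces1d* passed under every alternative tried, *Plin4* and *Ppard* under all but library totals alone, and no direction of the 8 turned under any. Setting the scale by library totals alone, which shifts the median of all genes by 0.31, gave 2 members passing as higher, 1 as lower, 1 called lower and a median of 0.013, and 23 other fatty acid genes higher and 9 lower. Setting the median of all genes to 0 gave 27 members lower, 6 called lower and a median of -0.584, with 8 other genes higher and 38 lower. That setting shifts the median of all genes by -0.291. The share of all genes that passed was not counted under it or under any other alternative but the block. RLE size factors gave 1 member higher and 1 called lower, limma-voom 4 called lower, and the filter on low counts 1 called lower.

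The mouse as a block gave 2 members higher and 12 lower, and its other effects on members stand beside them. Without spindle 10, 12 and 13 there were 3 members lower, and 7 other genes higher and 9 lower. Without spindle 16 and muscle 12 there were 1 member higher and 13 lower. Leaving out each library in turn gave 0 to 1 members higher (*Etfb*, at 0.46 with edgeR adjusted p = 0.0193, without spindle 10), 6 to 14 lower (14 without spindle 13), 1 to 3 called lower, and a median between -0.384 and -0.217.

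Single libraries also decided whether some members passed. Without spindle 13, *Lpl* (-0.40), *Etfdh* (-0.50), *Cpt2* (-0.46), *Hadhb* (-0.52), *Mlycd* (-0.72) and *Ucp3* (-1.66) passed as lower. Without spindle 16, *Acads* (-0.36), *Cpt2* (-0.45) and *Hadhb* (-0.50) did, and without spindle 12 *Lipe* (-0.45). Without muscle 10, *Eci1* (-0.38), *Cpt2* (-0.40), *Hadhb* (-0.50) and *Mlycd* (-0.65) did, without muscle 12 *Cpt2* (-0.43) and *Hadhb* (-0.44), and without muscle 16 *Cpt2* (-0.42), *Pdk4* (-1.30) and *Ucp3* (-1.50).

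Members with small fold changes turned sign. With library totals alone, *Acadl* (0.143), *Acads* (0.036), *Decr1* (0.114), *Echs1* (0.073), *Eci2* (0.036), *Etfa* (0.012), *Fabp4* (0.035), *Hadh* (0.226), *Hadha* (0.014), *Lipe* (0.039), *Lpl* (0.007), *Plin2* (0.169) and *Pnpla2* (0.175) turned positive. With the median of all genes at 0, *Acaa2* (-0.039), *Acadm* (-0.252), *Cd36* (-0.256) and *Slc25a20* (-0.272) turned negative. *Hadh* was 0.001 with RLE, 0.0 with DESeq2 and 0.003 with the filter. *Slc25a20* was -0.027 with limma-voom. Without spindle 10, 12 and 13, *Cd36* was -0.051 and *Slc25a20* -0.035, and without spindle 16 and muscle 12, *Acadm* was -0.049 and *Slc25a20* -0.123. Leaving out single libraries turned *Acadm* (-0.054 to 0.137), *Cd36* (-0.105 to 0.15), *Slc25a20* (-0.176 to 0.121), *Hadh* (-0.184 to 0.017) and *Ppara* (-0.491 to 0.016). The causes of these shifts were not tested, beyond the scale itself for library totals and the median gene. Counts limit *Cpt1b* and *Ppara* most.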
